A study of Mus musculus with 2 samples.

Results

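The genes described here were 35 mouse genes of the lysosome, matched by symbol to the 32589 genes of the count tables, and all 35 were found. They comprised 12 proteases, 6 glycosidases, 6 genes of lipid and lipoprotein handling, 6 membrane proteins, 3 parts of the proton pump and 2 regulators. Membership was set by symbol, and no threshold on the measured values entered it. The members, and the further gene lists used below, were nevertheless chosen with earlier results of these data known.

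Lysosomes are acidic organelles in which hydrolases break down proteins, glycans and lipids that arrive by endocytosis, phagocytosis or autophagy. A vacuolar proton pump (V-ATPase) acidifies the lumen, and many of the hydrolases are carried there by mannose-6-phosphate receptors. The transcription factor TFEB and its relatives bind an E-box, CACGTG, in the promoters of many lysosomal genes (the CLEAR element). Tissue macrophages, which take up dead cells and debris, are among the cells richest in lysosomal transcripts, and dendritic cells use the same enzymes to prepare antigens.

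scRNA-Seq had been run on whole tumor-bearing livers of mice with cholangiocarcinoma (CCA), a cancer of the bile ducts, driven by hydrodynamic tail vein injection of plasmids for myr-AKT, a myristoylated AKT, and NICD, the intracellular domain of Notch. There was 1 library of shYT mice given PBS and 1 library of shYT mice given an anti–PD-1 antibody (clone RMP1-14), which blocks an inhibitory receptor of T cells. Both groups carried the shYT genotype, with separate doxycycline-inducible shRNAs against YAP and against TAZ driven in all tissues by CAG-rtTA3. The knockdown was thus shared and not compared. Doxycycline began on day 25 after injection, the antibody was given on days 26, 29 and 32, and the tumors were taken on day 33. The labels gave neither the age, sex and number of the animals in each library nor which shYT line was used. Per the study's text, mice of both sexes were included in its experiments, without a statement for these libraries. A treatment group held several animals, but cells could not be assigned to animals.

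With 1 library per group there was no replicate, so no test of the treatment was possible and each difference below is one between these 2 libraries. Values are UMIs (unique molecular identifiers, each counting 1 captured mRNA molecule) summed over the cells of a class and given as CPM, the count divided by all UMIs of that class and multiplied by 1000000. Intervals of CPM are exact 95% Poisson intervals, those of ratios are built from them, and those of shares are exact 95% binomial intervals. All of them cover counting error only. A log2 ratio is log2 of (CPM + 5) with anti–PD-1 over PBS, which understates the change of genes near 5 CPM or lower. A gene was measured in a class if it had at least 10 UMIs over both libraries, and 1.5-fold, a log2 ratio of 0.58 in size, was used to count larger differences.

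The PBS library held 19397 barcodes and 121713441 UMIs, and the anti–PD-1 library 19451 barcodes and 100807037 UMIs, of which 15531 and 16360 cells passed the filters. The libraries shared 219 barcodes. They also differed in sex-linked transcripts: 1481 PBS cells had a UMI of a Y-linked gene and none of *Xist* while 6686 had the reverse, against 7861 and 4 anti–PD-1 cells. Between the whole libraries, the sex of the animals and the treatment therefore cannot be told apart. Cells were assigned to classes by panels of 8 marker genes that contained none of the 35 lysosomal genes, and each class name stands for cells like that type. The macrophage class (no *Clec4f* UMI) held 2853 PBS and 916 anti–PD-1 cells, the Kupffer class (resident liver macrophages) 1052 and 2088, and the dendritic class 402 and 196. In both libraries 5 of the 10 leading genes of the macrophage class and 4 of those of the Kupffer class came from their own panels. A further 3 in the Kupffer class came from the macrophage panel (*C1qa*, *C1qb* and *C1qc*), while the macrophage class had 0 from other panels. The same panels had set the classes, so these counts describe the classes and are no separate support for their names.

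The promoters of a few of these genes are shown first, most of them with the CACGTG E-box described above. Each window covers 250 bases before to 50 bases after a start site in the RefSeq annotation of GRCm38.p6, is written in the gene's own direction, and has each CACGTG in capitals. *Ctsd* (cathepsin D; chr7:142387778-142388077, minus strand), *Ctsa* (protective protein/cathepsin A; chr2:164833523-164833822, plus strand) and *Mcoln1* (a lysosomal calcium channel; chr8:3500269-3500568, plus strand) hold 2 matches each. *Lamp1* (a major membrane protein of lysosomes; chr8:13158911-13159210, plus strand) holds 4. *Cd63* (a tetraspanin of late endosomes; chr10:128909095-128909394, plus strand) holds none and is shown for contrast, since its values were among the most different between the libraries. The windows of *Cd63*, *Ctsa*, *Ctsd* and *Mcoln1* belong to start sites inside the GENCODE spans of these genes, and that of *Lamp1* to the start of its span. The spans of *Cd63*, *Ctsa* and *Ctsd* are given further on. The table had no window for the *Cd63* transcript that starts furthest upstream, so that promoter was not searched, and a further window of *Ctsa* held no match.
Ctsd: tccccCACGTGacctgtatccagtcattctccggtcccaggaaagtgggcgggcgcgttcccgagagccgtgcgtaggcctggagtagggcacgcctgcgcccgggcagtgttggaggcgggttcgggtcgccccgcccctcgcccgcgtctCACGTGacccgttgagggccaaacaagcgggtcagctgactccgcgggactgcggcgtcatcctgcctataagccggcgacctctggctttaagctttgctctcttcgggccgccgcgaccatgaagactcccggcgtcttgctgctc
Ctsa: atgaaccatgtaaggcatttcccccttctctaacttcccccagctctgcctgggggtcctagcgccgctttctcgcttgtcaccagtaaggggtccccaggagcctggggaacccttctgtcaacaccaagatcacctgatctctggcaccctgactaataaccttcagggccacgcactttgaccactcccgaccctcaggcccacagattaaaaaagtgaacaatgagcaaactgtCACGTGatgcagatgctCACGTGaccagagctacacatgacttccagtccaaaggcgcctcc
Lamp1: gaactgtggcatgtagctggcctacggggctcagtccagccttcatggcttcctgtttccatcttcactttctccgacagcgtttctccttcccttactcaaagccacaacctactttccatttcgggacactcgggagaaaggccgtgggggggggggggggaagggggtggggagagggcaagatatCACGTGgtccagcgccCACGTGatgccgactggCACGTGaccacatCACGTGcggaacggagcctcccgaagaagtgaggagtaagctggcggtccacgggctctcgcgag
Mcoln1: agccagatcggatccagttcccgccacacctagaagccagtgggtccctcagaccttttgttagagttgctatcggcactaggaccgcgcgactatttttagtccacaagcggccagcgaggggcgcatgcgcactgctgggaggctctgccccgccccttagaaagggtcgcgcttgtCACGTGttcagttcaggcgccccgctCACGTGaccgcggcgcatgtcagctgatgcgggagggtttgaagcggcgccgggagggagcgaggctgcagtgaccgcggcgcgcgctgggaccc
Cd63: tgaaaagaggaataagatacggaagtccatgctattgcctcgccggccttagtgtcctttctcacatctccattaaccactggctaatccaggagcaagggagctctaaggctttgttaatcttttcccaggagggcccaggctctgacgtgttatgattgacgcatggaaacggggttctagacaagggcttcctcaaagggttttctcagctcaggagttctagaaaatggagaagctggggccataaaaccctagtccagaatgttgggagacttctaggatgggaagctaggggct

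Of the 30 members with a window, 10 (33.3%) held CACGTG, against 2187 of 27025 symbols (8.09%) with a window of the same length. The longer palindrome TCACGTGA, which contains CACGTG, was found in 4 members (13.3%) and in 1.12% of all symbols. Both motifs read the same on either strand. The 10 members were *Ctsa*, *Ctsd*, *Ctsf*, *Ctsl*, *Lgmn*, *Gaa*, *Glb1*, *Lamp1*, *Mcoln1* and *Atp6v0d1*. In macrophages their median log2 ratio was −0.50, from −0.90 to −0.29, and that of the 20 members without a match was −0.40, from −0.94 to 0.12. A match is a run of letters and not a shown binding site. *Npc1*, *Asah1*, *Ctsh*, *Atp6v0d2* and *Ctsb* were not in the promoter table.

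Macrophages and Kupffer cells carried by far the most lysosomal mRNA, and in both classes the anti–PD-1 library carried less of it. The 35 genes made up 3.66% of macrophage UMIs with PBS (95% interval 3.651% to 3.666%) and 2.73% with anti–PD-1 (2.714% to 2.742%). In Kupffer cells the share was 4.02% with PBS (4.006% to 4.031%) and 3.27% with anti–PD-1 (3.265% to 3.28%). Monocytes, the blood cells from which many tumor macrophages derive, followed with 1.78% and 1.36%. Plasmacytoid dendritic cells had 1.68% and 1.64%, cDC1 1.33% and 1.28%, mature migratory dendritic cells 0.975% and 0.969%, and cDC2 0.972% and 0.856%. Endothelial cells had 0.973% and 0.833%, CAFs 0.956% and 0.897%, and neutrophils 0.791% and 0.727%. Among these 15 classes the lowest shares were in tumor and biliary epithelial cells (0.647% and 0.628%), B cells (0.539% and 0.488%), NK cells (0.407% and 0.376%), T cells (0.379% and 0.364%) and plasma cells (0.241% and 0.239%). Kupffer cells and macrophages thus led the 15 classes in both libraries, and in the anti–PD-1 library monocytes came after plasmacytoid dendritic cells. Classes with few cells were left out of this order, among them hepatocytes (38 and 8 cells, 0.316% and 0.251%) and mesothelial cells (37 and 18 cells, 0.613% and 0.66%). Mast cells or basophils (20 and 16 cells) had 1.15% and 0.555%. Cells left without a class (2153 and 2560) had 2.28% and 1.67%. In these, 33 of 35 members had lower values with anti–PD-1 (66.3% of all genes).

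**Figure D1:**
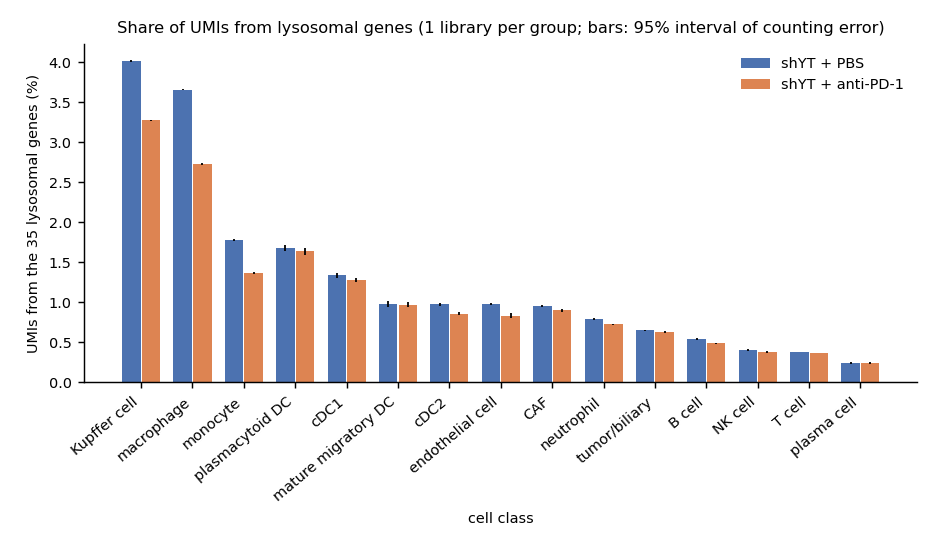
The bars give the percent of all UMIs of each cell class that came from the 35 lysosomal genes, PBS in blue and anti–PD-1 in orange, with 95% intervals of counting error and 1 library per group. Kupffer cells stand at 4.02% and 3.27% and macrophages at 3.66% and 2.73%, while T cells stood at 0.379% and 0.364%.

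In macrophages, 32 of 35 members had a log2 ratio below 0, against 62.3% of all 15119 genes measured in that class. The median of the members was −0.46 and that of all genes −0.08. The intervals of 31 members lay below 0, those of 3 above 0 and that of 1 spanned it. A total of 8 members were at least 1.5-fold lower (3.8% of all genes were) and 0 were at least 1.5-fold higher (6% of all genes). The median over genes of the ratio between the libraries was −0.14 on the log2 scale in macrophages, −0.16 in Kupffer cells and −0.20 in dendritic cells, and scaling by it in place of the UMI total moves ratios upwards by up to that size. On that scale the macrophage median was −0.33 with 30 members below 0 (50.7% of all genes) and 6 at least 1.5-fold lower (2.04% of all genes). With equal weight for each cell all 35 were below 0 (55.6% of all genes), among them *Npc2* (−0.18), *Ctsc* (−0.11) and *Ppt1* (−0.06), the 3 above 0 in the sums.

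Cell depth and the makeup of the class moved with this result. The median UMIs per macrophage were 7441 with PBS and 4397 with anti–PD-1. All 8 macrophage panel genes were lower with anti–PD-1, and their summed level went from 19700 to 17407 CPM. All 8 T cell panel genes were higher there, from 111.4 to 217.6 CPM, as were 7 of 8 neutrophil genes (199.3 to 447.8 CPM) and 5 of 8 monocyte genes (814.1 to 1095 CPM), with none of these genes at 0 in either library. The NK cell panel was higher for 8 of 8 genes (22.7 to 80.4 CPM, none at 0). The Kupffer panel was higher for 6 of 8 (87 to 256 CPM), with *Clec4f* at 0 in both libraries by the gate. The panel of pancreatic acinar cells, a class that held 0 PBS and 66 anti–PD-1 cells, was higher for 8 of 8 (1.31 to 60.3 CPM), with 5 genes at 0 with PBS and 0 genes at 0 with anti–PD-1. Not all panels rose. CAF genes were lower for 7 of 8 (98.8 to 69.8 CPM). Hepatocyte genes were lower for 7 of 8 (5.96 to 2.68 CPM), with 1 at 0 with PBS and 4 with anti–PD-1. Tumor and biliary genes were lower for 4 and higher for 4 (225.5 to 216.4 CPM). All 14 genes of a list that tissue dissociation can induce (the dissociation list) were higher, from *Jun* (0.26) and *Hsp90aa1* (0.47) to *Atf3* (2.34) and *Fosb* (2.53). Their median log2 ratio was 1.43, and their summed level was 5601 CPM with PBS and 14991 CPM with anti–PD-1. Whether dissociation induced them here was not tested. The part of these differences in the lysosomal values was not tested.

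**Figure D2:**
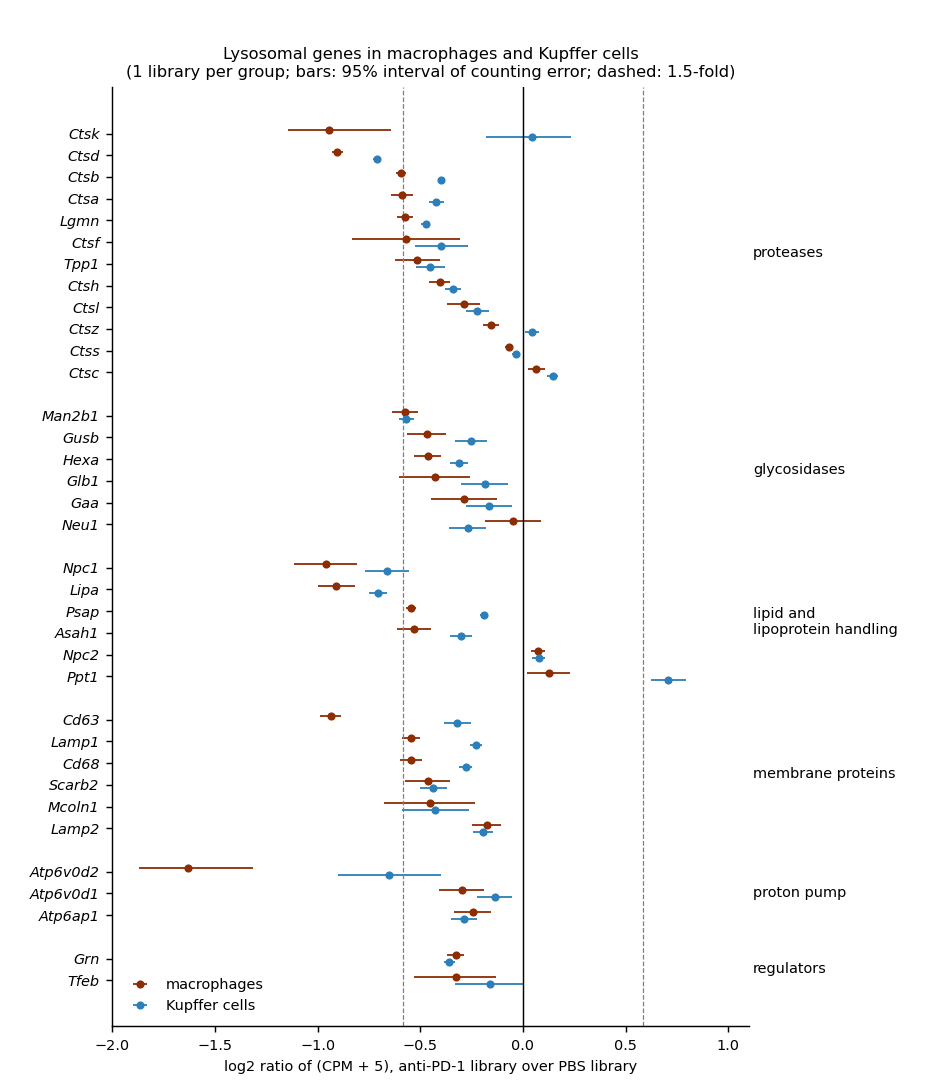
Points give the log2 ratio of (CPM + 5), anti–PD-1 over PBS, for each of the 35 genes in macrophages (brown) and Kupffer cells (blue), grouped by role, with 95% intervals of counting error and dashed lines at 1.5-fold. *Atp6v0d2* (−1.63 in macrophages) is farthest to the left and *Ppt1* (0.71 in Kupffer cells) farthest to the right.

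The proteases were lower in macrophages for 11 of 12 genes, 4 of them by at least 1.5-fold, with a median of −0.54. *Ctsd*, an aspartyl protease that activates other cathepsins, gave 102096 UMIs or 4445 CPM with PBS (4418 to 4472) and 12394 UMIs or 2372 CPM with anti–PD-1 (2330 to 2414). Its log2 ratio was −0.90 (−0.93 to −0.88), one of the most precisely counted large differences among the members. *Ctsb*, an abundant cysteine cathepsin, gave 4565 and 3025 CPM, a log2 ratio of −0.59 (−0.62 to −0.57). *Ctsa*, a carboxypeptidase that also shields 2 glycosidases from degradation, gave 897.7 and 594.9 CPM, again −0.59 (−0.64 to −0.54). *Ctsk*, the collagen-degrading cathepsin of osteoclasts, rested on few molecules, 140 UMIs with PBS and 4 with anti–PD-1, or 6.10 and 0.77 CPM, and its ratio was −0.94 (−1.14 to −0.64). CAFs carried far more of it, 260.3 and 208.1 CPM, while the summed CAF panel in macrophages was 98.8 CPM with PBS and 69.8 CPM with anti–PD-1, and the part of CAF RNA in the *Ctsk* counts was not tested.

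Just short of 1.5-fold were *Lgmn* (legumain, an asparaginyl endopeptidase; 1862 and 1248 CPM) and *Ctsf* (25.1 and 15.3 CPM), both at −0.57. *Tpp1*, a tripeptidyl peptidase, was at −0.51, *Ctsh* at −0.41, *Ctsl* at −0.29 and *Ctsz* at −0.16. *Ctss*, the cathepsin that trims the invariant chain in antigen-presenting cells, hardly differed, at 5917 CPM with PBS (5886 to 5949) and 5640 CPM with anti–PD-1 (5576 to 5705). Its log2 ratio of −0.07 turned to 0.07 under the other scaling. *Ctsc*, which activates granzymes and neutrophil serine proteases, was the protease with a ratio above 0, at 1050 and 1099 CPM and 0.06 (0.02 to 0.11). The makeup of the lysosomal mRNA also differed, in that *Ctss* supplied 16.2% of the members' macrophage UMIs with PBS and 20.7% with anti–PD-1, and *Ctsd* 12.2% and 8.69%.

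All 6 glycosidases had lower values in the anti–PD-1 macrophages, with a median of −0.45, although none reached 1.5-fold. *Man2b1*, the lysosomal alpha-mannosidase, came closest at 663.9 and 444.5 CPM (−0.57, interval −0.64 to −0.51). *Gusb* (beta-glucuronidase), *Hexa* (the alpha subunit of hexosaminidase) and *Glb1* (beta-galactosidase) lay at −0.47, −0.46 and −0.43. *Gaa*, which degrades glycogen, lay at −0.29. *Neu1*, a sialidase, gave 96.5 and 93.2 CPM, with an interval that spanned 0 (−0.18 to 0.09) and a sign that turned to 0.08 under the other scaling.

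Among the genes of lipid handling, those of cholesterol release stood apart from each other. *Lipa*, the acid lipase that frees cholesterol from lipoprotein esters, gave 8910 UMIs or 387.9 CPM with PBS (379.9 to 396.1) and 1067 UMIs or 204.2 CPM with anti–PD-1 (192.1 to 216.8), a ratio of −0.91 whose interval ended at −0.82. *Npc1*, the membrane protein that exports cholesterol, gave 2971 UMIs or 129.3 CPM and 335 UMIs or 64.1 CPM, −0.96 (−1.11 to −0.81). *Npc2*, the soluble carrier that hands cholesterol to NPC1, was not lower, at 1552 and 1634 CPM (0.07, interval 0.04 to 0.11). *Psap*, the precursor of the saposins that help to degrade sphingolipids, gave 4542 and 3111 CPM (−0.55), and *Asah1*, acid ceramidase, lay at −0.53. *Ppt1*, a palmitoyl-protein thioesterase, was the highest member in macrophages, at 157.2 and 171.8 CPM (0.12, interval 0.02 to 0.23).

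The 6 membrane proteins were all lower, with a median of −0.50. *Cd63* gave 30934 UMIs or 1347 CPM with PBS (1332 to 1362) and 3664 UMIs or 701.1 CPM with anti–PD-1 (678.6 to 724.2), a ratio of −0.94 (−0.99 to −0.89). The structural protein *Lamp1* lay at −0.55, from 1274 to 870.8 CPM, and *Cd68*, a macrophage glycoprotein of the same family, at −0.54. *Scarb2*, the receptor that carries glucocerebrosidase to lysosomes, lay at −0.46 and *Mcoln1* at −0.45. *Lamp2*, needed for fusion with autophagosomes, differed least, at 412.6 and 364.3 CPM (−0.18, interval −0.25 to −0.11).

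Of the 3 parts of the proton pump, *Atp6v0d2*, a subunit isoform found in osteoclasts and some macrophages, differed far more than *Atp6v0d1*, the isoform present in most cells. *Atp6v0d2* had 350 UMIs or 15.2 CPM with PBS (13.7 to 16.9) and 8 UMIs or 1.53 CPM with anti–PD-1 (0.66 to 3.02), a log2 ratio of −1.63 (−1.87 to −1.31), the lowest of all members in macrophages. *Atp6v0d1* gave 170.6 and 137.8 CPM (−0.30), and *Atp6ap1*, an accessory protein of the pump, 250.7 and 210.9 CPM (−0.24). Among the regulators, *Tfeb* itself gave 46.9 and 36.4 CPM, a ratio of −0.33 (−0.53 to −0.13). *Grn*, progranulin, a secreted protein that is processed into granulins in lysosomes, gave 1400 and 1114 CPM, also −0.33.

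Kupffer cells, which were more numerous in the anti–PD-1 library and of similar depth in both (median 8872 and 9198 UMIs), had lower values for 30 of 35 members, against 64.7% of all 14978 genes. The median was −0.29 for the members and −0.08 for all genes, and −0.13 under the other scaling, with 28 members below 0 (49.6% of all genes). At least 1.5-fold lower were 4 members (2.17% of all genes), and 1 was at least that much higher (3.98% of all genes). Under the other scaling 0 members were at least 1.5-fold lower (0.948% of all genes). Genes of the dissociation list were higher here too, 14 of 14, with a median of 1.25 and sums of 6691 CPM with PBS and 15448 CPM with anti–PD-1. The Kupffer panel itself was lower for 7 of 8 genes, from 16535 to 12796 CPM in sum, and the macrophage panel for 8 of 8. Panels of other cell types were mixed. Higher there with anti–PD-1 were 7 of 8 neutrophil genes (217.3 to 370.3 CPM), 6 of 8 cDC2 genes (73.4 to 179.3 CPM) and 8 of 8 NK cell genes (10.1 to 28.6 CPM). The monocyte panel had 4 genes higher and 4 lower (353.5 to 716 CPM in sum). None of these genes was at 0. All 8 acinar genes were higher (1.25 to 40.1 CPM), 5 of them at 0 with PBS. CAF and endothelial genes were lower for 8 of 8 each. Tumor and biliary genes were lower for 7 of 8 (194.9 to 127.2 CPM), and plasma cell and plasmacytoid dendritic cell genes for 5 of 8 each. The part of these differences in the Kupffer values was not tested.

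The 4 genes lower by that much on the CPM scale had also been at least 1.5-fold lower in macrophages. *Ctsd* gave 4684 CPM with PBS (4641 to 4728) and 2857 CPM with anti–PD-1 (2834 to 2881), −0.71 (−0.73 to −0.69). *Lipa* gave 723.8 CPM (706.8 to 741) and 441.6 CPM (432.3 to 451), likewise −0.71. *Npc1* gave 118.5 and 72.97 CPM (−0.66), and *Atp6v0d2* 71 and 57 UMIs or 7.42 and 2.91 CPM (−0.65, interval −0.90 to −0.40).

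The remaining members below 0 ranged from *Man2b1* (1101 and 740.5 CPM, −0.57) to *Ctss* (−0.03). Some members differed between the macrophage classes in how far they moved, a contrast that was not tested. *Cd63* lay at −0.32 in Kupffer cells (310.7 and 248 CPM) against −0.94 in macrophages. *Ctsk* had only 10 and 24 UMIs in Kupffer cells, 1.05 and 1.23 CPM. *Ctsb*, which supplied 19.2% and 17.9% of the members' UMIs in Kupffer cells, lay at −0.40. *Ctss* (−0.03), *Ctsz* (0.04), *Npc2* (0.08) and *Ctsc* (0.14) were close to 0 or above it. The sign of *Ctss* and that of *Atp6v0d1* (−0.14) turned under the other scaling. *Ppt1* was the exception in size, with 1287 UMIs or 134.6 CPM with PBS (127.3 to 142.1) and 4366 UMIs or 223.1 CPM with anti–PD-1 (216.5 to 229.8), a ratio of 0.71 (0.62 to 0.80).

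Monocytes had 31 of 34 measured members below 0 (62.4% of all genes), with a median of −0.42 against −0.12 for all genes. At least 1.5-fold lower were 7 members (9.96% of all genes) and 0 were at least that much higher (7.27% of all genes). The lowest were *Cd63* (360 and 128 UMIs, 113.8 and 46.7 CPM, −1.20), *Lipa* (164.4 and 82.9 CPM, −0.95) and *Ctsd* (863.3 and 455.8 CPM, −0.91). *Psap*, *Lamp1*, *Ctsa* and *Hexa* followed, from −0.73 to −0.59. *Ctsc* was the highest, at 0.15. Under the other scaling the median was −0.29 and 3 members were at least 1.5-fold lower (6.06% of all genes). The difference was not seen in monocytes with Y-linked and no *Xist* UMIs (41 and 244 cells), whose median was −0.07, as was that of all genes, and whose lysosomal share was 1.40% with PBS and 1.38% with anti–PD-1. Within the PBS library the same 41 cells had a median of −0.30 relative to 229 cells with *Xist* and no Y-linked UMIs. The monocytes of the libraries lay in different clusters, with 81.5% of PBS and 16.7% of anti–PD-1 monocytes in cluster 17, and 3.54% and 58.3% in cluster 8, whose most common class was macrophage. Within cluster 17 (391 and 66 cells) the median was −0.26. Genes of the dissociation list were higher for 12 of 14, with a median of 0.94. The monocyte panel was lower for 5 of 8 genes (12711 to 10614 CPM in sum), while 7 of 8 T cell genes (103.4 to 205.6 CPM) and 8 of 8 acinar genes (2.84 to 40.9 CPM, 5 of them at 0 with PBS) were higher. The part of these differences in the lysosomal values was not tested.

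Per cell, both macrophage classes and monocytes had fewer lysosomal UMIs in the anti–PD-1 library. Cells were thinned at random to 1000 UMIs each, which left out 98 PBS and 164 anti–PD-1 macrophages that were shallower. The median macrophage then had 32 lysosomal UMIs with PBS (quartiles 24 and 41) and 24 with anti–PD-1 (12 and 32). The lower quartiles thus lay further apart than the medians and the upper quartiles, with a larger part of the anti–PD-1 macrophages at low counts. Kupffer cells had medians of 38 and 31, with 20 and 148 cells left out, and monocytes 17 and 13, with 5 and 4 left out. T cells had a median of 3 in both libraries.

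**Figure D3:**
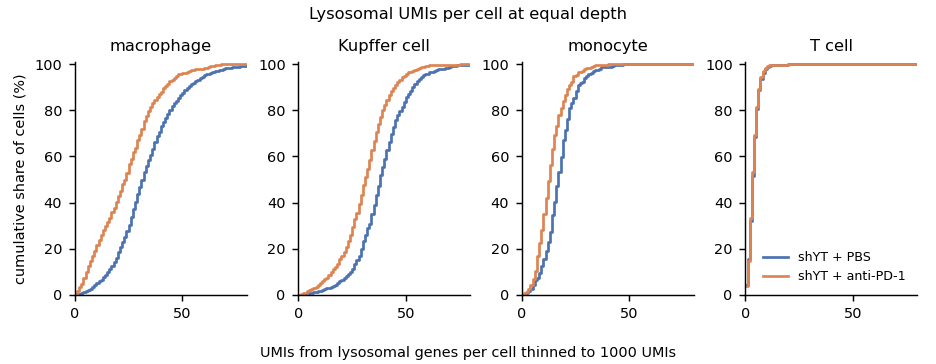
Each panel plots the cumulative percent of cells against the number of lysosomal UMIs per cell after thinning to 1000 UMIs, PBS in blue and anti–PD-1 in orange. The anti–PD-1 curve lies to the left in macrophages (median 24 against 32), Kupffer cells (31 against 38) and monocytes (13 against 17), and the T cell curves overlie each other with a median of 3.

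The share of thinned cells with at least 1 UMI of a gene is given beside T cells as a class that carries little of it, with exact binomial intervals. *Cd63* was found in 58.7% of PBS macrophages (56.8% to 60.5%) and 33.9% of anti–PD-1 macrophages (30.5% to 37.4%), and in 6.08% and 3.81% of T cells. Before thinning, the macrophage shares had been 85.3% and 57.6%. *Lipa* was found in 26.2% (24.6% to 27.9%) and 14.1% (11.7% to 16.8%) of macrophages, 45.5% and 32.4% of Kupffer cells and 4.08% and 4.15% of T cells, and without thinning in 73.1% and 43.3% of macrophages. *Ctsd* was found in 77.6% and 62.5% of macrophages, 92.1% and 82.9% of Kupffer cells and 39.8% and 33.9% of T cells, and without thinning in 95.3% and 80.9% of macrophages. All 3 genes were thus found in fewer macrophages of the anti–PD-1 library, and *Lipa* and *Ctsd* also in fewer Kupffer cells. In Kupffer cells *Cd63* was found in 15.7% (13.5% to 18.1%) and 12.3% (10.9% to 13.9%), intervals that overlapped. *Atp6v0d2* was found in 33 of 2755 PBS macrophages (1.20%) and in 0 of 752 with anti–PD-1 (interval up to 0.49%). A count of 0 there limits cells with a UMI at this depth, not cells that express the gene. T cells had it in 0.28% and 0.20%, and without thinning the macrophage shares were 3.68% and 0.22%. *Ctsk* was found in 0.22% of PBS macrophages, 0 of 752 with anti–PD-1 and 0.12% and 0.09% of T cells, too few to read a difference.

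The macrophages of the libraries lay largely in different expression clusters. Cluster 0 held 77.1% of the gated PBS macrophages (2199 cells) and 6.88% of the anti–PD-1 ones (63 cells), whereas cluster 8 held 1.61% (46 cells) and 48.1% (441 cells). Clustering used all variable genes, lysosomal ones included, so the split is a description. Within cluster 0 the lysosomal share was 3.90% with PBS and 3.66% with anti–PD-1, with a median log2 ratio of −0.14. Within cluster 8 it was 3.34% and 3.06%, with a median of −0.18, and within cluster 24, which held 98 and 30 gated macrophages, 2.82% and 2.53% with a median of −0.30. Averaged over these 3 macrophage clusters, the median of the members was −0.20 and that of all genes −0.08, with 26 members below 0 (63% of all genes) and 3 at least 1.5-fold lower (6.79% of all genes), the last about the share among all genes.

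Those 3 were *Ctsk* (−1.45), *Atp6v0d2* (−1.34) and *Cd63* (−0.72). *Npc1* stood at −0.55 within clusters, *Ctsd* at −0.40 and *Lipa* at −0.38, each nearer 0 than in the pooled macrophages. *Ctsa* (−0.35) and *Ctsb* (−0.16) were too. *Gaa* (0.23), *Ctss* (0.14), *Tfeb* (0.07), *Ctsl* (0.06), *Neu1* (0.03) and *Ctsz* (0.02) stood on the other side of 0 from their pooled values. Taking only macrophages of the macrophage clusters but summing them as before gave a median of −0.42.

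Shallow cells formed a further difference. In cluster 3, whose most common class was tumor and biliary epithelial, lay 46 PBS and 96 anti–PD-1 gated macrophages, with medians of 1201 and 928 UMIs and lysosomal shares of 1.46% and 0.994%. In cluster 9, whose most common class was Kupffer, lay 117 and 147, with 1227 and 932 UMIs and shares of 2.01% and 1.36%.

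Of the Kupffer cells, cluster 6 held 66.9% with PBS and 60.7% with anti–PD-1, with 704 cells at a lysosomal share of 3.94% and 1268 at 3.36%. Their median log2 ratio there was −0.26. The rest were split by library, in that the macrophage cluster 0 held 20.4% of PBS and 1.72% of anti–PD-1 Kupffer cells (215 and 36 cells), and cluster 8 held 0.57% and 13.4% (6 and 279 cells). Within cluster 0 the lysosomal shares were 4.62% and 4.32%, with a median of −0.08. The shallow cluster 9 held 7.41% and 13%, with shares of 2.67% and 2.10% and a median of −0.29. The part of this split in the Kupffer values was not tested.

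**Figure D4:**
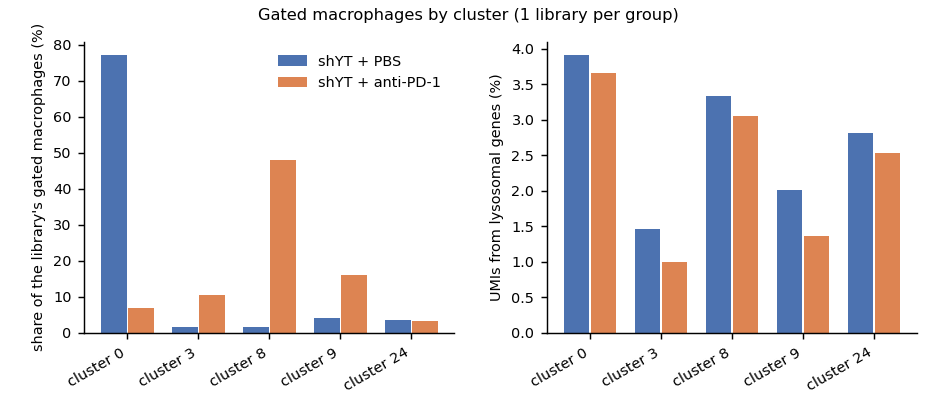
The left panel gives the percent of each library's gated macrophages in the 5 clusters with enough cells of both, and the right panel the percent of their UMIs from lysosomal genes, PBS in blue and anti–PD-1 in orange. Cluster 0 holds 77.1% of PBS and cluster 8 48.1% of anti–PD-1 macrophages, and within cluster 0 the share is 3.90% against 3.66%.

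Sex-linked transcripts allowed a partial look at the mixed cells of the PBS library. Within it, macrophages with Y-linked and no *Xist* UMIs (292 cells) had a median log2 ratio of 0.11 over those with *Xist* and no Y-linked UMIs (1648 cells). Between the libraries, Y-linked macrophages alone (292 and 406 cells) had a median of −0.47 against −0.06 for all genes, with 13 of 34 measured members at least 1.5-fold lower (8.36% of all genes in these cells). Kupffer cells chosen in this way (152 and 1301) had a median of −0.34 against −0.09 for all genes.

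Dendritic cells, pooled over cDC1, cDC2 and mature migratory cells, had a lysosomal share of 1.07% in both libraries. The share was lower with anti–PD-1 within cDC1 (1.33% and 1.28%) and cDC2 (0.972% and 0.856%) and was 0.975% and 0.969% in mature migratory cells, and the pool held a larger part of cDC1, the subset with the highest share, in the anti–PD-1 library. Below 0 were 25 of 33 measured members, against 64.6% of all genes, with a median of −0.26 against −0.16 for all genes, and 17 under the other scaling (50.2% of all genes). Lower by at least 1.5-fold were 4 (15.8% of all genes) and higher by as much was 1 (6.21% of all genes), so the lower count was under the share of all genes. The lower ones were *Ctsa* (258.4 and 137.1 CPM, −0.89), *Glb1* (41.3 and 22.9 CPM, −0.73), *Ctsh* (638.2 and 401.1 CPM, −0.66) and *Npc1* (40.9 and 24.5 CPM, −0.64). The genes of the dissociation list were higher for 10 of 14, with a median of 0.75. The Kupffer panel was higher in the pool for 8 of 8 genes (73.5 to 230.4 CPM, 1 gene at 0 with PBS) and the cDC2 panel lower for 7 of 8 (2250 to 1269 CPM). Their part in the lysosomal values was not tested.

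The highest members of the pooled dendritic cells were *Ppt1*, *Psap* and *Atp6v0d1*, and the log2 ratios of the first and second were higher in the pool than in any of its subsets. *Ppt1* gave 509.9 and 779.8 CPM in the pool (0.61), but 1591 and 1633 CPM in cDC1 (0.04), 93.9 and 76.8 CPM in cDC2 (−0.28) and 12 and 16 UMIs in mature migratory cells (0.18). cDC1, the subset specialised in cross-presentation, were 101 of the 402 PBS and 67 of the 196 anti–PD-1 dendritic cells. *Psap* stood at 0.42 in the pool, 0.11 in cDC1 (5690 and 6125 CPM), −0.16 in cDC2 (1456 and 1302 CPM) and 0.23 in mature migratory cells. *Atp6v0d1*, the third highest in the pool at 92.1 and 119.5 CPM (0.36), was above 0 in each subset, at 0.24, 0.65 and 0.13.

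By subset, cDC1 had 0 members at least 1.5-fold higher (11.8% of all genes) and 5 lower (17.1% of all genes), namely *Cd63*, *Glb1*, *Ctsh*, *Ctsa* and *Lipa*. *Cd63* rested on 28 and 8 UMIs (−1.53, interval −2.35 to −0.66). In cDC2, 1 member was higher (7.61% of all genes), *Atp6v0d1* at 96.9 and 154.9 CPM (0.65), and 1 lower (21.9% of all genes), *Glb1* at 70 and 18 UMIs (−0.60). Other markers moved with cDC2, in that the neutrophil panel was higher for 8 of 8 genes (187.3 to 905.4 CPM), the monocyte panel for 5 of 8 (892.2 to 1709 CPM), with 2 of its genes at 0 with anti–PD-1, and the cDC2 panel lower for 7 of 8 (2940 to 1815 CPM), a link that was not tested. Mature migratory cells, with 60 and 49 cells, had 5 of 32 members higher (14.4% of all genes) and 6 lower (24.7% of all genes), from *Npc1* (9 and 1 UMIs, −2.22, interval −3.29 to −0.49) to *Mcoln1* (2 and 11 UMIs, 1.68, interval 0.10 to 2.99). The median was −0.22 in cDC1, −0.24 in cDC2 and −0.15 in mature migratory cells.

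In neutrophils, T cells, B cells, NK cells, tumor and biliary epithelial cells and CAFs, medians on the CPM scale lay nearer 0 than in macrophages, Kupffer cells and monocytes. Neutrophils had a median of −0.14 against −0.23 for all genes, with 23 of 34 members below 0 (72.5% of all genes), 5 members lower (17.5% of all genes) and 1 higher (4.73% of all genes). Under the other scaling their median turned to 0.21, with 11 of 34 members below 0 (49.5% of all genes) and 0 at least 1.5-fold lower (7.4% of all genes). *Ctsd* was the lowest at 1432 and 813.5 CPM (−0.81), and *Ctsc*, whose product activates the neutrophil elastase family, the highest at 290 and 1943 UMIs or 125.6 and 238.2 CPM (0.90). T cells had a median of −0.07, with 1 member lower (4.24% of all genes), *Cd63*, and 0 higher (2.9% of all genes). B cells had 2 lower (10.3% of all genes), *Cd63* and *Ctsd* (373.6 and 225.7 CPM, −0.71), and 1 higher (4.11% of all genes), *Neu1* (156 and 692 UMIs, 68.5 and 124 CPM, 0.81). NK cells had 3 lower (16.3% of all genes), and 0 higher (7.24% of all genes). The 3 were *Ctsl* (46 and 48 UMIs), *Cd63* (108 and 126 UMIs) and *Ctsh* (51 and 60 UMIs). Under the other scaling the medians were 0.13 in T cells, 0.02 in B cells and 0.16 in NK cells, with 1 member lower in each (2.07%, 6.37% and 10.5% of all genes).

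In tumor and biliary epithelial cells, 3 members were higher (7.17% of all genes) and 2 lower (6.62% of all genes). The higher ones, *Ctsc* (61.9 and 121.9 CPM, 0.92), *Ctss* (151.1 and 276.8 CPM, 0.85) and *Cd68* (26.1 and 42.8 CPM, 0.62), are genes that macrophages carry at many times these levels. The part of macrophage RNA in these 3 values was not tested. *Ctsl* (223 and 144 CPM, −0.61) and *Cd63* (681.4 and 448.5 CPM, −0.60) were the lower ones. Under the other scaling 0 members were at least 1.5-fold lower there (5.82% of all genes). CAFs had 0 members higher (9.23% of all genes) and 0 lower (10% of all genes), with a median of 0.00 and a range from −0.57 (*Lipa*) to 0.43 (*Cd68*).

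*Cd63* was the member that differed in most classes. Beside macrophages and monocytes it was lower by at least 1.5-fold in neutrophils (323.1 and 211.1 CPM), B cells (121.6 and 53.7 CPM, −1.11), T cells (70.6 and 38.5 CPM, −0.80), endothelial cells (900 and 67 UMIs, −1.25) and tumor and biliary cells. It was also lower by as much in cDC1, NK cells and plasmacytoid dendritic cells (80 and 52 cells, −1.40). Under the other scaling it did not reach 1.5-fold in neutrophils or in tumor and biliary cells. In CAFs, by contrast, it stood at 1361 CPM with PBS and 1368 CPM with anti–PD-1 (0.01, interval −0.08 to 0.10). Macrophage panel genes found in T cells summed to 568.9 CPM with PBS and 751 CPM with anti–PD-1, with 4 lower and 4 higher. The Kupffer panel there was higher for 8 of 8 genes (115.2 to 324.5 CPM, 1 at 0 with PBS). The tumor and biliary panel was lower for 8 of 8 (355 to 174.3 CPM). The CAF panel was lower for 7 of 8 (112.3 to 68.9 CPM). The part of RNA from other classes in the low *Cd63* values of lymphocytes was not tested.

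**Figure D5:**
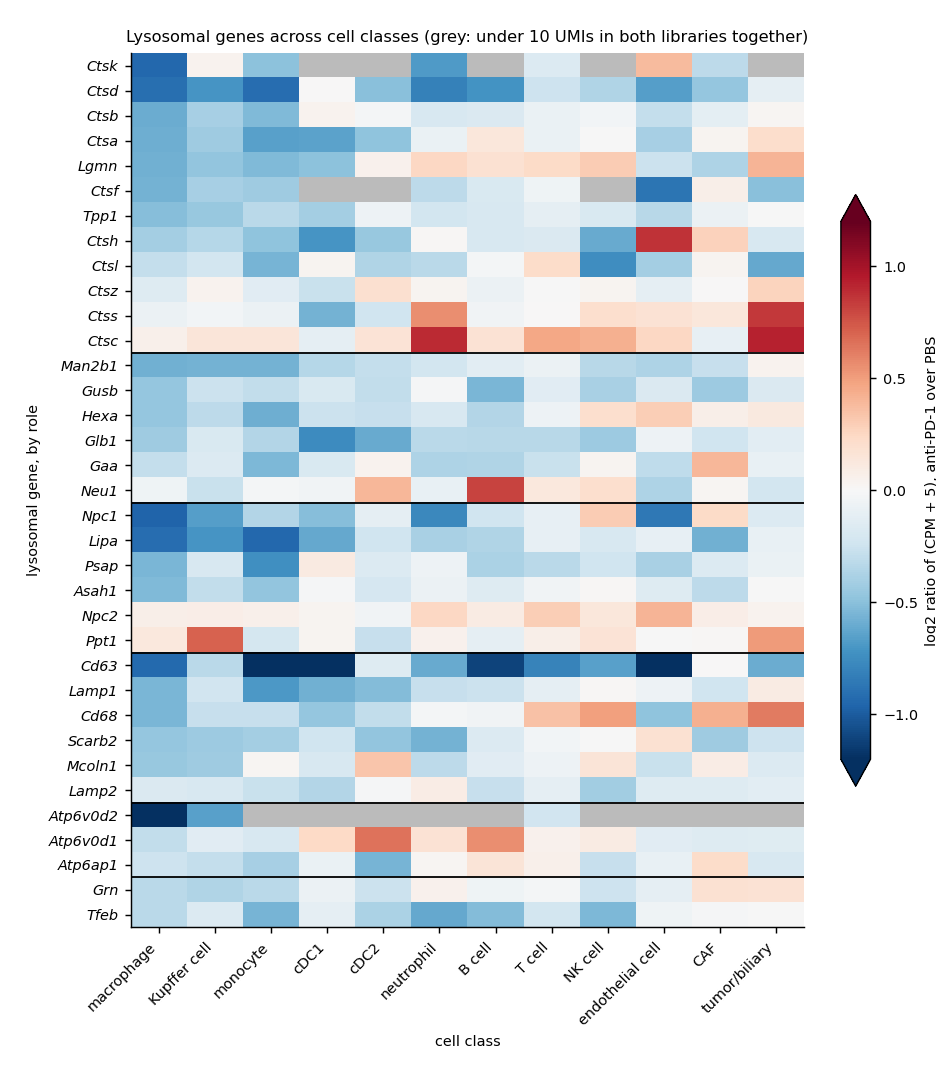
The map gives the log2 ratio of (CPM + 5), anti–PD-1 over PBS, for 35 lysosomal genes (rows, by role) in 12 cell classes (columns), blue where lower and red where higher with anti–PD-1, and grey where under 10 UMIs were counted. Blue runs through most rows of macrophages, Kupffer cells and monocytes, the *Cd63* row is blue in most columns but not in CAFs (0.01), and *Ctsc* is red in neutrophils (0.90) and tumor and biliary cells (0.92).

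A wider set, of further lysosomal genes and of inhibitors of cathepsins or other proteases, had a median below that of all genes in macrophages, but its lists differed. Of 73 further genes in 5 lists, 72 were measured, 60 were below 0 (62.3% of all genes) and the median was −0.33. At least 1.5-fold lower were 9 (3.8% of all genes), and 2 were higher (6% of all genes), both of them from the list of inhibitors. Scaled by the median ratio, 48 were below 0 (50.7% of all genes), with a median of −0.20, and 3 were at least 1.5-fold lower (2.04% of all genes). The other hydrolases and their activators were below 0 for 25 of 28 genes (median −0.38), with 3 past 1.5-fold, *Sgsh* (26.6 and 12.4 CPM, −0.86), *Acp5* (tartrate-resistant acid phosphatase; 442.5 and 268.7 CPM, −0.71) and *Pld3* (395.8 and 241.5 CPM, −0.70). *Gla*, alpha-galactosidase, and *Naaa*, an acid amidase, were the highest of that list at 0.28 and 0.20. The other V-ATPase subunits were below 0 for 14 of 14 (median −0.26), and for 10 under the other scaling, with *Atp6v0a1* (−0.68) and *Atp6v1c1* (−0.59) lowest and *Atp6v1g1* (−0.05) and *Atp6v1d* (0.00) highest. Other membrane proteins were below 0 for 9 of 14 (median −0.19), about the share of all genes, and for 7 under the other scaling, among them the sialic acid exporter *Slc17a5* (−0.85) and the cystine exporter *Ctns* (−0.60), while *Laptm4b* (0.07) and *Slc15a3* (0.22) were highest.

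The list of sorting receptors and of the MiT family of transcription factors, to which TFEB belongs, also held *Gnptab*, *Gnptg*, *Nagpa*, *Flcn* and *Rraga*. This whole list was below 0 for 9 of 11 genes (62.3% of all genes), but with a median of −0.06. With the scaling by the median ratio 5 were below 0 (50.7% of all genes) and the median turned to 0.06. *Tfec* lay at −0.60, *Mitf* at −0.22 and *M6pr*, a mannose-6-phosphate receptor, at 0.04, with *Rraga* highest at 0.13. The list of inhibitors was split. *Cst7* (136 and 95 UMIs, 5.92 and 18.2 CPM, 1.09) and *Serpinb9*, which inhibits granzyme B (250 and 176 UMIs, 10.9 and 33.7 CPM, 1.28), were higher, *Serpinb6a* was lower (−0.74), and *Cst3*, cystatin C, lay at −0.21.

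In Kupffer cells 54 of 72 further genes were below 0 (64.7% of all genes; median −0.22), with 5 lower by at least 1.5-fold (2.17% of all genes) and 3 higher (3.98% of all genes), the last about the share among all genes. After the same scaling 46 were below 0 (49.6% of all genes) and 0 lower by as much (0.948% of all genes). The 3 higher on the CPM scale were *Gla* (402 and 1352 UMIs, 42 and 69.1 CPM, 0.66), *Naaa* (35.3 and 58.4 CPM, 0.65) and *Sort1* (6.90 and 14.7 CPM, 0.73). In dendritic cells 46 of 71 were below 0, about the 64.6% of all genes, with a median of −0.12 against −0.16 for all genes, and the median turned to 0.06 under the other scaling.

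Genome positions bear on how far some counts can be trusted. In GENCODE vM21, on the same mouse assembly as the files, 14 of 35 members overlap another annotated gene, 4 on the same strand and 11 on the opposite one. *Ctsd* (chr7:142375911-142388038, minus strand) shares its span with *Gm49369*, *Ctsb* (chr14:63122462-63145923, plus strand) with *Fdft1* and *Ctsa* (chr2:164832873-164841032, plus strand) with *Neurl2* and *Pltp*. *Lipa* (chr19:34492318-34527474, minus strand) and *Cd63* (chr10:128900989-128912822, plus strand) overlap none. How the counting treated strand and shared reads is not given in the sources used here, so values of the overlapping members are less certain.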

How the data were processed

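scRNA-Seq libraries (Singleron GEXSCOPE) of dissociated tumor-bearing livers had been processed by the authors with Cell Scope against mm10 and analysed in Seurat 4.3, per the submitters' processing notes and methods. The deposited matrices held whole-number UMI counts per gene and cell, not normalized. Annotation, strand setting and cell calling were not given in the sources used here.

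As in the study, cells were kept if they had no fewer than 500 and no more than 5000 detected genes and if mitochondrial UMIs did not exceed 10% (80.1% of PBS and 84.1% of anti–PD-1 barcodes). A cell took the class with most detected genes of 19 panels of 8 markers (at least 3 genes, leading by 1 or more). Macrophage and Kupffer panels competed together, at least 3 Kupffer genes made a Kupffer cell, and other cells of that lineage with a *Clec4f* UMI were left out. This gated 86.1% and 84.4% of kept cells. A doublet caller written after Scrublet marked 2.46% and 3.08% of cells, which were kept and left out under another setting. Clusters came from 2000 variable genes per library, 30 principal components, 15 neighbours and Leiden resolution 1.

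UMIs were summed per class and library. Tools were Python 3.11.15, numpy 2.4.6, scipy 1.17.1, pandas 2.3.3, scikit-learn 1.9.0 and leidenalg 0.10.2. The ratio, its interval and the 1.5-fold call were tried on simulated Poisson counts. These held counting error only, with no difference between animals or in cell makeup and no change of 1.5-fold. No p-value was computed, since cells are not replicates of a treatment. Members, lists, panels and thresholds were chosen with earlier results of these data known. All 35 members were described in macrophages. Elsewhere the members past 1.5-fold or 2-fold and the ends of each range or list were named by rule, and any further gene (among them *Cd63* across classes and the members past 1.5-fold in other classes) was named after its values were seen. Other settings were run, 11 set out at the start and 3 chosen after seeing the data.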

Additional observations from a re-analysis of the deposited data

Results flagged for a closer look

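A few members had opposite signs in the macrophage and dendritic classes, with counting intervals on either side of 0. *Ctsz*, a carboxypeptidase of the cathepsin family, had a log2 ratio of 0.04 in Kupffer cells and −0.16 in macrophages, a gap of 0.20. *Psap* had 0.42 in pooled dendritic cells, a gap of 0.61 to Kupffer cells (−0.19) and of 0.96 to macrophages (−0.55). *Atp6v0d1* had 0.36 in pooled dendritic cells, a gap of 0.50 to Kupffer cells (−0.14) and of 0.66 to macrophages (−0.30). With 1 library per group these differences between classes were not tested. *Psap* in dendritic cells turned to −0.14 where classes were taken from clusters, and *Atp6v0d1* there turned to −0.33 after thinning. The sign of *Atp6v0d1* in Kupffer cells turned to 0.02 under the other scaling, and *Ctsz* in macrophages was 0.02 as the mean within clusters. Within the subsets *Psap* stood at 0.11 in cDC1 and −0.16 in cDC2, and *Atp6v0d1* at 0.24 and 0.65.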

How the results depend on the processing

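No paired analysis was possible because each group had 1 library. Over the first 11 other settings the median of the members stayed below 0, from −0.63 to −0.33 in macrophages, −0.36 to −0.13 in Kupffer cells and −0.28 to −0.08 in dendritic cells. Scaling by the median of ratios gave −0.33 in macrophages and −0.13 in Kupffer cells, with 0 members at least 1.5-fold lower in Kupffer cells (0.948% of all genes) and 1 lower (9.81% of all genes) and 2 higher (10.1% of all genes) in dendritic cells. Equal weight per cell gave −0.63 in macrophages, with 19 of 35 lower (7.05% of all genes), −0.36 in Kupffer cells, and 0 higher in dendritic cells (7.15% of all genes). Classes taken from clusters gave −0.15 in Kupffer cells, with 1 lower there (1.72% of all genes), and 2 lower (9.05% of all genes) and 0 higher (5.06% of all genes) in dendritic cells. Cells with Y-linked and no *Xist* UMIs gave 13 of 34 lower in macrophages (8.36% of all genes), 7 of 35 in Kupffer cells (7% of all genes), and 9 of 32 lower (22.7% of all genes) and 0 higher (14.8% of all genes) in dendritic cells. A lead of 2 panel genes gave 7 lower in dendritic cells (17.5% of all genes), thinning 2 higher (17.6% of all genes) and a mitochondrial limit of 20% 0 higher (6.28% of all genes). Of the 3 settings chosen after seeing the data, the mean within macrophage clusters gave −0.20 with 3 lower (6.79% of all genes), and equal weight of the dendritic subsets turned *Ppt1* to −0.020. The causes of these changes were not tested. Depth limited *Ctsk* and *Atp6v0d2*, with 4 and 8 UMIs in anti–PD-1 macrophages.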
